A study of Homo sapiens with 4 samples.

Results

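The hexosamine pathway was followed through 9 genes: the synthesis enzymes GFPT1, GNPNAT1, PGM3 and UAP1, the breakdown enzymes GNPDA1, GNPDA2 and AMDHD2, the salvage kinase NAGK and the O-GlcNAc transferase OGT. Members were the probe sets whose platform annotation gave exactly 1 gene symbol, and that symbol one of the 9. This found 7 of the 9 genes, out of 19775 genes with such a probe set, through 15 of the 54675 probe sets on the array. AMDHD2 was listed only on 2 probe sets that also carry a second symbol, and 0 probe sets listed PGM3, so both genes were not analysed here. GNPDA1 was chosen on its own signals: in earlier work on these same arrays it stood among the genes of smallest p and widest separation between the groups. Its difference between the groups is therefore given as a description without a test. The other members were listed for their role in the pathway, with earlier results of these data known.

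The RNA came from Z138, a human mantle cell lymphoma line long kept in culture. Mantle cell lymphoma is a cancer of B cells, and most cases express SOX11, a transcription factor that normal B cells lack. All cells carried a stably integrated lentiviral short hairpin RNA (shRNA), and the study asked which transcripts depend on SOX11. The control group held 2 samples with scrambled hairpins, shControl.1 and shControl.2, and the knockdown group held 2 samples whose hairpins target SOX11, named shSOX11.1 and shSOX11.3. Every sample was hybridised to 1 Affymetrix U133 Plus 2.0 array, and each stands for a different construct. The series describes the transduced lines as clones. No construct was measured more than once and no separate cultures are named. The p-values therefore describe the spread between these 4 samples only, and that spread may be technical.

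Hexosamine synthesis branches from glycolysis. GFPT1 makes glucosamine 6-phosphate from fructose 6-phosphate and glutamine, GNPNAT1 acetylates it, PGM3 moves the phosphate, and UAP1 joins the product to UTP to give UDP-GlcNAc, the donor for glycans, for membrane anchors and for O-GlcNAc, a single sugar that OGT places on nuclear and cytoplasmic proteins. GNPDA1 and its close relative GNPDA2 run the first step backwards, returning glucosamine 6-phosphate to fructose 6-phosphate and ammonia. NAGK phosphorylates free N-acetylglucosamine from degraded glycans, and AMDHD2 removes the acetyl group from the resulting phosphate.

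Signals are the authors' MAS5 intensities, on a linear scale set equal across arrays, with a 2% trimmed mean of 150 on every array. For testing, at least 2 arrays had to read above 24.8, the median signal over all probe sets and arrays. SOX11 itself, at its brightest probe set, read 797 and 787 in the controls against 335 and 339 after knockdown, 42.5% of control, so the knockdown was partial. Its other probe sets read 296 and 327 in the controls against 121 and 164, and 439 and 482 against 203 and 135. There shSOX11.3 minus shSOX11.1 was 0.44 and -0.58 on the log2 scale, so the hairpins differed in opposite directions. Of the 6 B-cell and mantle cell lymphoma markers checked, 5 had a probe set of 1 symbol, and all 5 were above the threshold on every array. Their summed signal was 21151 and 21094 on the control arrays and 18035 and 18363 on the knockdown arrays. CCND1 and MS4A1, which make up most of it, were at 91.3% and 88.3% of control, CD79A at 81.3%, CD79B at 62.2% and PAX5 at 55.2%. Of 4 myeloid markers 0 were above the threshold on all arrays, with LYZ and CD14 below it on every array. CSF1R differed between the groups, at 15.1 and 8.98 in the controls, below the threshold, against 25.7 and 28.9 after knockdown, just above it. That put CSF1R at 234% of control, whereas the other myeloid markers were at 56.2% (LYZ), 54.4% (CD14) and 89.3% (MPO). All of these signals lay near or below the threshold. EPCAM and KRT19, which define epithelial cells, were also below it on every array. CD3G was above it on all arrays (129 to 207), alone among 5 T and NK cell markers, and COL1A1 (881 to 1063) was so among the 4 epithelial and stromal markers. The ratio of the 3′ to the 5′ control probe set of beta-actin, which moves with RNA integrity and the labelling reaction, stood at 11.6 for both controls, 7.29 for shSOX11.1 and 5.31 for shSOX11.3. The same ratio for GAPDH overlapped between the groups, at 0.978 for shControl.1, 1.06 for shControl.2, 1.01 for shSOX11.1 and 1.03 for shSOX11.3. The B-cell marker sum, CSF1R and the beta-actin ratio thus moved with the groups in which every member below was compared, while the GAPDH ratio did not. The part of the B-cell marker sum, CSF1R and the beta-actin ratio in the differences of the members was not tested.

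Promoter sequences are shown for the 4 members whose signals were higher on both knockdown arrays than on both control arrays, because the targeted gene encodes a transcription factor that binds DNA. The windows are from RefSeq (GRCh38.p14) and run from 250 bases before the annotated start of transcription to 50 bases from it, read along the strand of the gene. They lie at chr5:142012978-142013277 (minus strand) for GNPDA1, chr4:44726507-44726806 (minus strand) for GNPDA2, chr2:69387178-69387477 (minus strand) for GFPT1 and chr1:162561281-162561580 (plus strand) for UAP1, the last being the first-listed of 3 windows for that gene. Capitals mark CACGTG, the E-box read by basic helix-loop-helix factors. They also mark TGACGTG, letters taken from a known element of the unfolded protein response. Longer forms of that element were not searched.
GNPDA1: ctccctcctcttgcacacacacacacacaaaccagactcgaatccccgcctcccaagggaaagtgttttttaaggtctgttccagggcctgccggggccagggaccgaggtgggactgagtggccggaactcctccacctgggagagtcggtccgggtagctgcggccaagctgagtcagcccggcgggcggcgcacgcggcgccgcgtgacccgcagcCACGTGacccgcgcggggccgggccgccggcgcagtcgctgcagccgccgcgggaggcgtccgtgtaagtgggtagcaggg
GNPDA2: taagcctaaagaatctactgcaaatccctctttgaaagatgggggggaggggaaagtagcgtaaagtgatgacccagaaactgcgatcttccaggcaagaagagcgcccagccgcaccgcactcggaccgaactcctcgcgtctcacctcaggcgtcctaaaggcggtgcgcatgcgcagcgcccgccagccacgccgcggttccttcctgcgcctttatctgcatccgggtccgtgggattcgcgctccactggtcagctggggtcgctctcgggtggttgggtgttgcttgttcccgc
GFPT1: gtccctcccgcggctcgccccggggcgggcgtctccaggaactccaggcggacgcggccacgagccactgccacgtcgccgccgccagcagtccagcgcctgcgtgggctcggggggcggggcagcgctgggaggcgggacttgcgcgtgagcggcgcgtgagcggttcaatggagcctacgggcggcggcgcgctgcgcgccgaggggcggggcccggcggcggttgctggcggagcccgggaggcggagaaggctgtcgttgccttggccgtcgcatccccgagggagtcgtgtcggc
UAP1: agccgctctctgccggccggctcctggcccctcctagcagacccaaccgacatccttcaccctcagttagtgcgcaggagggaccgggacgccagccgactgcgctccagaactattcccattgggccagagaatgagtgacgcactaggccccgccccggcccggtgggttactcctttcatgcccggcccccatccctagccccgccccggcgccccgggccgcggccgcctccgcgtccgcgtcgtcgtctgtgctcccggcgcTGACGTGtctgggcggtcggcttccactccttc
The GNPDA1 window holds 1 E-box, whose first base lies 31 bases before the start, and the GNPDA2 window holds 0. The UAP1 window holds 1 match to TGACGTG, which begins at base 18 of the transcript and is followed by a T. Over the 13 windows of the 9 genes, E-boxes were in 2, those of GNPDA1 and of AMDHD2, whose window held 4. TGACGTG was in 2 overlapping windows, both of UAP1. The core of the SOX recognition site was searched as ACAAAG and also, in a second form, as ACAATG. Neither form was in any of the 13 windows. Forms that start with T in place of A were not searched. The windows printed for GFPT1 (TCAATG) and GNPDA2 (TCAAAG, on the opposite strand) hold such letters. All motifs were searched on both strands. Of all 35116 windows of 300 bases in the table, 24.5% held ACAAAG or ACAATG, 7.26% an E-box and 1.97% TGACGTG. The E-box and TGACGTG share 5 letters, and no stretch was counted under both. These motifs were chosen after the sequences had been seen. A match describes letters in the window and shows no bound site, and the lack of a match says only that these letters are not in these 300 bases.

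GNPDA1, which breaks glucosamine 6-phosphate down, had the largest difference in either direction among the member probe sets tested. Its single probe set read 159 on shControl.1 and 137.6 on shControl.2, against 359 on shSOX11.1 and 274 on shSOX11.3. Both knockdown arrays lay above both control arrays, and the closest pair, shSOX11.3 and shControl.1, differed by 1.73-fold. The log2 means were 7.21 ± 0.15 for shControl and 8.29 ± 0.28 for shSOX11 (SD, n = 2 each), a mean difference of 2.12-fold or 1.09 on the log2 scale. Relative to the control mean, shSOX11.1 stood at 2.43-fold and shSOX11.3 at 1.86-fold, so the hairpins differed from each other by more than the control arrays did (0.39 against 0.21 on the log2 scale). Among the 11938 genes tested, 117 had a larger positive difference, and 0.762% were at least 1.5-fold higher on all 4 pairs of a knockdown and a control array, while 1.93% were lower by as much. GNPDA1 was the 1 member among the former, and 0 members were among the latter. That separation is what brought it into the list. In RNA from whole cultures, here and below, a change in the share of cells that express a gene and a change in RNA per cell cannot be told apart.

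GNPDA2, which catalyses the same reaction from another chromosome, also read higher on both knockdown arrays, by less. Its probe set gave 132 and 109 on shControl.1 and shControl.2 and 162 and 156 on shSOX11.1 and shSOX11.3. The groups did not overlap, with the closest pair 1.18-fold apart, and most of the spread lay between the control arrays. The log2 difference was 0.41 (SE 0.21), or 1.33-fold, and it did not pass limma's test (adjusted p = 0.615 over 11938 genes). The signal of GNPDA1 relative to that of GNPDA2 within an array does not depend on how arrays are scaled. Set to 1 at the control mean, that ratio stood at 1.80 for shSOX11.1 and 1.43 for shSOX11.3, above both control arrays. GNPDA1 was picked for its own difference between the groups, so this ratio is a description only.

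**Figure D1:**
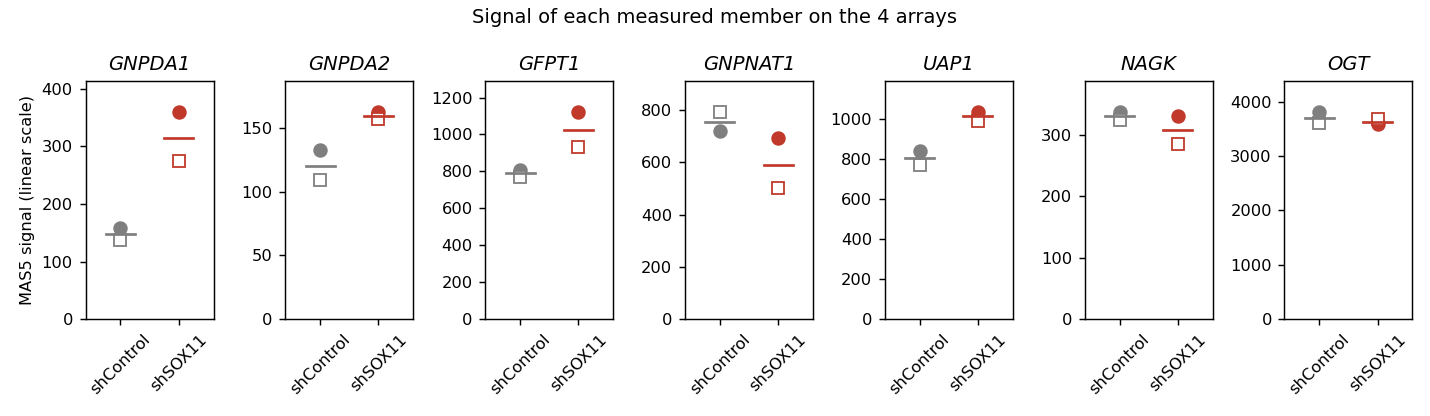
MAS5 signal of the 7 measured members on the 4 arrays, each at its brightest probe set and on its own linear axis from 0 (grey shControl, red shSOX11; filled circles are construct 1 of each group, open squares shControl.2 and shSOX11.3; bars are geometric means). GNPDA1, GNPDA2, GFPT1 and UAP1 are higher on both shSOX11 arrays, GNPNAT1 is lower on both, and NAGK and OGT overlap.

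GFPT1, the glutamine-using enzyme that sets the rate of the pathway, read higher on both knockdown arrays at all 4 of its probe sets. At the brightest, which stands for the gene, the signal was 810 and 770 on the control arrays and 1121 and 933 on shSOX11.1 and shSOX11.3. The groups did not overlap, although shSOX11.3 lay closer to control than shSOX11.1 did. The log2 difference was 0.37 (SE 0.16), or 1.30-fold, and limma gave an adjusted p of 0.587 and an unadjusted p of 0.0443.

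The other GFPT1 probe sets showed larger differences than the brightest one. The dimmest read 142 and 132 on the control arrays against 223 and 236 on the knockdown arrays, 1.67-fold, with its closest pair 1.57-fold apart. The next read 284 and 320 against 423 and 444, which is 1.44-fold, and here the hairpins lay within 0.07 of each other on the log2 scale. The last read 387 and 310 against 438 and 564, also 1.44-fold, with shSOX11.3 the highest array. With each probe set tested on its own, limma adjusted p over 28202 probe sets lay between 0.460 and 0.609 for the 4, so none passed. Probe sets of one gene share the same RNA and arrays, and their agreement is not replication of the knockdown. Which hairpin read higher was not the same across them: shSOX11.1 at the brightest, shSOX11.3 at the others.

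GNPNAT1, which acetylates the product of GFPT1, read the other way. Its probe set gave 721 and 792 on shControl.1 and shControl.2 and 692 and 503 on shSOX11.1 and shSOX11.3. Both knockdown arrays lay below both controls, but shSOX11.1 and shControl.1 were only 1.04-fold apart, and with each array centred on its median the groups overlapped. The log2 difference was -0.36 (SE 0.19), 1.28-fold lower, which did not pass limma (adjusted p = 0.620). It rested on shSOX11.3: against the control mean the log2 difference was -0.59 on that array and -0.13 on shSOX11.1. Without shSOX11.1 the limma adjusted p was 0.0352, in a fit whose error comes from the control arrays alone. Over the fits with 1 array left out it ranged from 0.0352 to 0.999.

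UAP1, which makes UDP-GlcNAc in the closing step of synthesis, again read higher on both knockdown arrays. The signal was 841 and 771 on shControl.1 and shControl.2 and 1034 and 991 on shSOX11.1 and shSOX11.3. The groups did not overlap, and the hairpins were closer to each other (0.06 on the log2 scale) than the control arrays were (0.13). The log2 difference was 0.33 (SE 0.15), or 1.26-fold, and limma gave an adjusted p of 0.589.

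Among the synthesis enzymes measured, GFPT1 and UAP1 thus read higher on both knockdown arrays, and GNPNAT1 read lower by a narrow margin. Differences between these genes were not tested. Within arrays and set to 1 at the control mean, the signal of GFPT1 relative to GNPNAT1 stood at 1.55 for shSOX11.1 and 1.78 for shSOX11.3. That of UAP1 relative to GNPNAT1 was 1.40 and 1.85. Both ratios were higher on each knockdown array than on each control array, whatever the scaling of the arrays. That had to follow, because GFPT1 and UAP1 were higher and GNPNAT1 was lower on every pair. The ratios are therefore a description only. GFPT1 relative to UAP1 was 1.11 and 0.960, and there the groups overlapped.

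**Figure D2:**
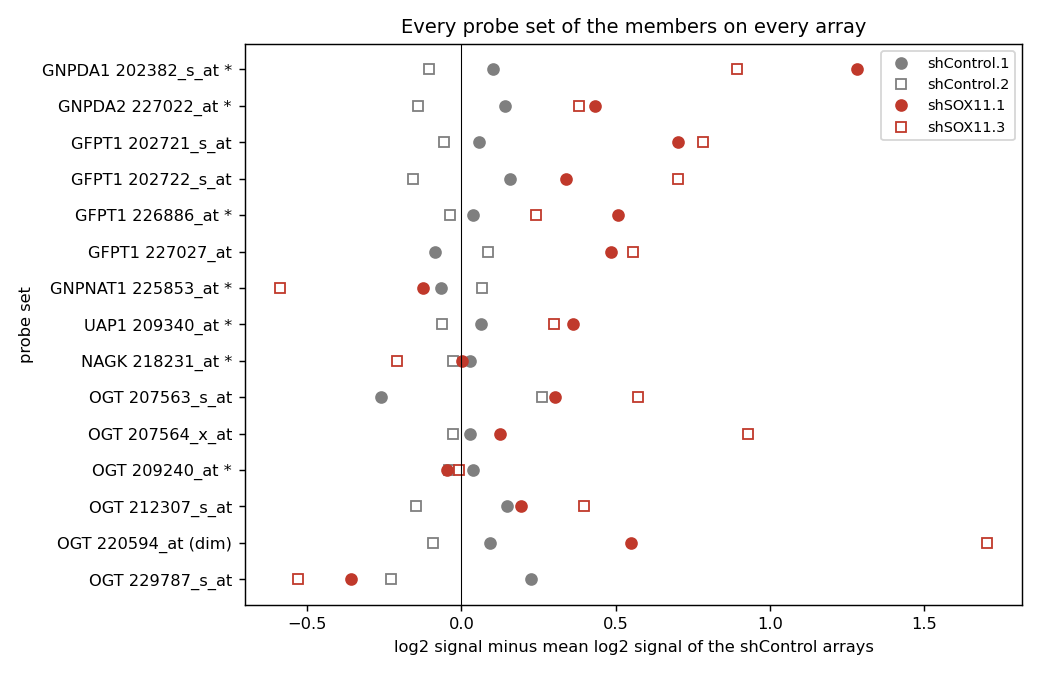
Log2 signal of all 15 member probe sets on each array, minus the mean log2 signal of the shControl arrays (grey shControl, red shSOX11; filled circles construct 1, open squares shControl.2 and shSOX11.3; an asterisk marks the probe set that stands for the gene, "dim" the 1 not tested). All 4 GFPT1 probe sets lie to the right of control on both shSOX11 arrays, while those of OGT scatter to both sides.

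NAGK, which recovers N-acetylglucosamine, showed no separation. Its probe set read 337 and 324 on the control arrays and 331 and 286 on shSOX11.1 and shSOX11.3. The value on shSOX11.1 lay between the controls and that on shSOX11.3 below them. The log2 difference was -0.10 (SE 0.17; limma adjusted p = 0.869), and its sign turned to 0.0029 when shSOX11.3 was left out.

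OGT, which places O-GlcNAc on proteins, was measured by 6 probe sets that did not point the same way. The brightest read 3807 and 3606 on the control arrays and 3583 and 3681 on the knockdown arrays, a spread of a few percent with overlapping groups. Its log2 difference was -0.03 (SE 0.13; limma adjusted p = 0.959), and the sign changed with quantile normalization, with median centring, with the mean of the probe sets and without shControl.1. Of the 5 OGT probe sets tested, 3 were higher on both knockdown arrays, 1 was lower on both and 1 overlapped.

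The tested OGT probe sets that were higher had closest pairs no more than 1.07-fold apart. The one with the largest of these differences, 1.44-fold, carries the suffix _x_at, by which Affymetrix flags probes that may bind other transcripts. It read 236 and 227 in the controls, 252 for shSOX11.1 and 440 for shSOX11.3. The lower one read 211 and 187 against 316 and 231, 1.36-fold lower. The remaining one, below the threshold on 3 of the 4 arrays and not tested, was also higher on both knockdown arrays. It read 8.94 and 7.86 on the controls, 12.3 on shSOX11.1 and 27.3 on shSOX11.3, with its closest pair 1.37-fold apart. Limma adjusted p for the 5 tested probe sets was 0.619 or more. The annotation used here does not say which OGT transcripts each probe set reads.

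Over the pathway, 0 of 7 members and 0 of 14 tested member probe sets passed limma's adjusted p of 0.05. Over all genes the share that passed was 0%, that is 0 of 11938. Over all probe sets it was 0.00355%, which is 1 of 28202, a probe set of the B-cell surface gene CD24. At an unadjusted p under 0.05 there were 2 members, GNPDA1 and GFPT1, where 8.38% of all genes reached it, and 4 member probe sets, where 8.26% of all probe sets did. GNPDA1 had been picked for that value. Limma without the intensity trend and limma's robust fit also gave 0 members past the adjusted threshold. With 2 arrays a group, the smallest two-sided p that an exact permutation test allows is 0.333.

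By separation alone, 4 of the 7 members were higher on both knockdown arrays than on both control arrays, where 16.2% of all genes were. Lower on both was 1 member, where 24.9% of all genes were. In either direction 5 of 7 members did not overlap, against 41.0% of all genes. With each array centred on its median these shares over all genes became 23.3% and 17.6%, and the members counted 4 and 0. Of the 14 tested member probe sets, 10 were higher on both and 2 lower on both, against 18.9% and 21.8% of all probe sets. Of the 10 that were higher, 4 were of GFPT1, 3 of OGT and 1 of GNPDA1, which was picked for this separation. Probe sets of one gene are not independent, so this count is a description only. Leaving out GNPDA1, 3 of 6 members were higher on both. The median log2 difference of the 7 members was 0.33, that of the 6 without GNPDA1 was 0.15, and that of all genes was -0.06. All 7 members were above the signal threshold on every array at the probe set that stands for them, so none entered through 1 group. With an array left out there are 2 pairs in place of 4, and more genes of every kind separate. Without shControl.2 the members lower on every remaining pair numbered 3, where 39.1% of all genes were lower. They numbered 2 without shSOX11.1 (48.6% of all genes) and 2 without shSOX11.3 (38.5%). Members higher on every remaining pair numbered 4 in each of these cases, where 26.7%, 29.3% and 36.1% of all genes were higher.

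**Figure D3:**
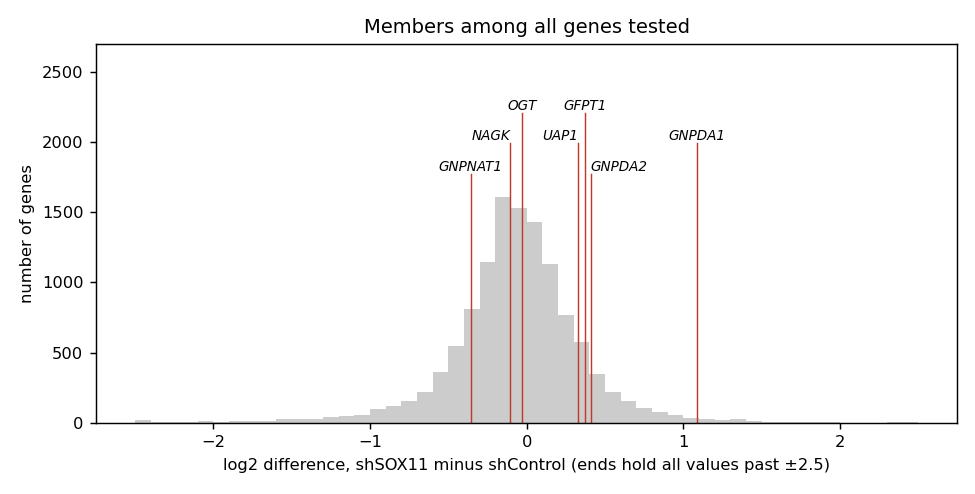
Log2 difference (shSOX11 minus shControl) of the 11938 genes tested, as a histogram in steps of 0.1, with the 7 members marked by red lines. GNPDA1 at 1.09 lies in the right tail, GNPDA2, GFPT1 and UAP1 lie between 0.33 and 0.41, NAGK and OGT lie near 0, and GNPNAT1 is at -0.36.

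Genes around the pathway were read from a list of 34, of which 27 were tested. Higher on both shSOX11 arrays were 8 of the 27, where 16.2% of all genes were. Lower on both were also 8, where 24.9% of all genes were, and 11 overlapped. Their median log2 difference was -0.08, close to the -0.06 of all genes, and 0 passed limma's adjusted p of 0.05, with 4 under an unadjusted 0.05 (OGA, CMAS, GLUL and MGAT1), as 8.38% of all genes were. UAP1L1, a relative of UAP1 and the 1 further synthesis gene tested, overlapped between the groups (log2 difference -0.33, SE 0.40). Limma adjusted p ranged from 0.337 to 0.988.

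OGA, which removes the O-GlcNAc that OGT adds, read 974 and 970 on the control arrays and 1180 and 1307 on shSOX11.1 and shSOX11.3 at its brightest probe set. The groups did not overlap, and the log2 difference was 0.35 (SE 0.15; limma adjusted p = 0.570). Its second brightest probe set did not follow, at 525 and 641 on the knockdown arrays against 695 and 523. HCFC1, a chromatin cofactor that OGT cleaves, read lower on both knockdown arrays, at 217 and 168 against 271 and 245 (log2 difference -0.43, SE 0.20; limma adjusted p = 0.595). The dimmer HCFC1 probe set tested overlapped between the groups, at 36.5 and 22.1 against 36.5 and 26.5.

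The sialic acid branch starts from UDP-GlcNAc, and 3 of its 5 tested genes, GNE, NANP and CMAS, were higher on both knockdown arrays, as 16.2% of all genes were. NANS, the sialic acid synthase, was lower on both, at 957 and 869 against 1064 and 1008 (log2 difference -0.18, SE 0.15). Its dimmer probe set overlapped. NPL overlapped at its brightest and dimmest probe sets. Its others were higher on both knockdown arrays, at 312 and 297 against 237 and 202, and at 235 and 321 against 195 and 209. For GNE and NANP, which act at the start and the end of sialic acid synthesis and are named after their values were seen, the log2 differences were 0.20 (SE 0.16) and 0.25 (SE 0.16). CMAS, which activates sialic acid for transfer to glycans, had the largest difference of the wider list, at 397 and 502 on shSOX11.1 and shSOX11.3 against 252 and 248, 1.79-fold (log2 difference 0.84, SE 0.18; limma adjusted p = 0.337). Its other probe set, also ending in _x_at, was lower on both, at 112 and 145 against 148 and 158. The sign for CMAS therefore depends on the probe set.

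Among genes that use UDP-GlcNAc, PIGA and MGAT1 read in opposite directions. PIGA, part of the enzyme that starts membrane anchor synthesis, read 132 and 128 in the controls, 143 for shSOX11.1 and 232 for shSOX11.3. Its log2 difference was 0.49 (SE 0.26; limma adjusted p = 0.620), most of it from shSOX11.3. MGAT1, which opens the way to complex N-glycans, read 129 and 123 against 181 and 183, with arrays of a group close together (log2 difference -0.53, SE 0.19; limma adjusted p = 0.519). NAGLU, a lysosomal enzyme that releases N-acetylglucosamine, read 40.8 and 48.8 against 59.2 and 62.9 (log2 difference -0.45, SE 0.32; limma adjusted p = 0.694). Of the 5 genes tested that supply hexose phosphate or glutamine, 0 were higher on both knockdown arrays and 2 were lower, where 16.2% and 24.9% of all genes were. The lower genes, which were picked out once their values were known, were GLUL, which makes glutamine, at 1812 and 1644 against 2365 and 2283, and the glutamine transporter SLC1A5, at 128 and 89.4 against 146 and 135.5. Their limma adjusted p was 0.483 and 0.657, and the other GLUL probe sets overlapped between the groups.

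**Figure D4:**
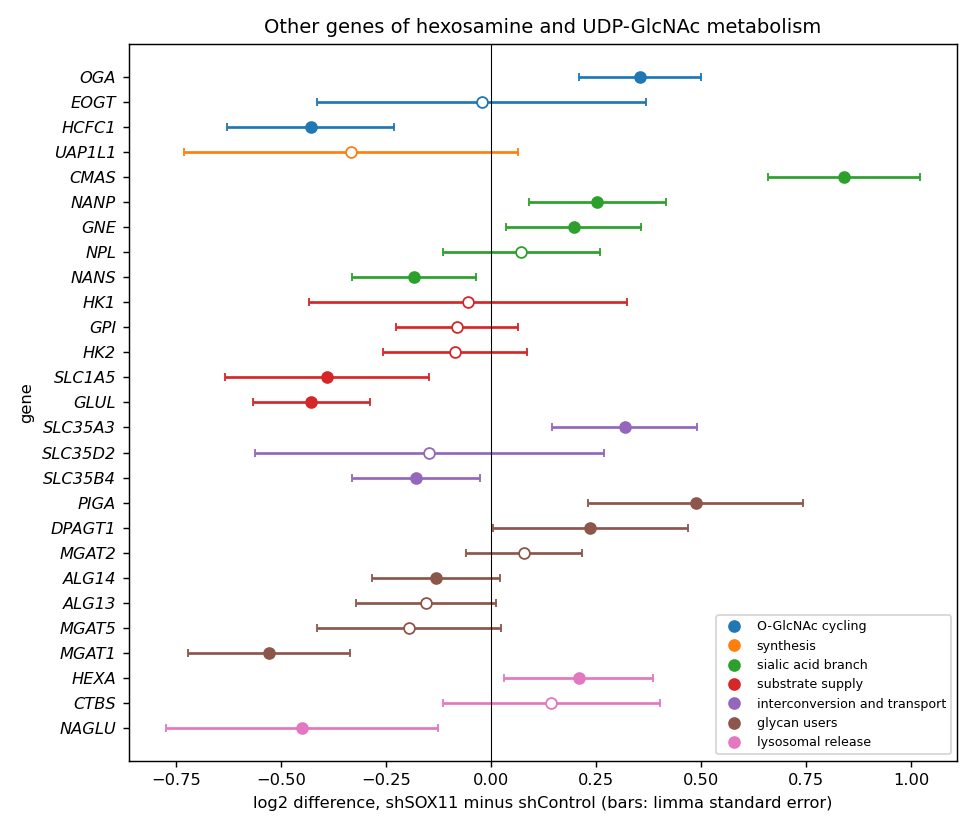
Log2 difference (shSOX11 minus shControl) of the 27 tested genes around the pathway, coloured by role, with limma standard errors as bars; filled points are genes whose groups do not overlap. CMAS at 0.84 is the furthest to the right and MGAT1 at -0.53 the furthest to the left.

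The 4-array profile of GNPDA1 was set against all genes by the sum of squared differences between centred log2 signals. With 4 arrays this ranks genes mainly by the group difference for which GNPDA1 was picked, so it is a description only. The closest genes were FAS (distance 0.013), AKTIP (0.021), SCN2B (0.021), STS (0.030) and ZNF763 (0.039). FAS read 242 and 192 on the control arrays and 534 and 381 on shSOX11.1 and shSOX11.3, with shSOX11.1 the highest array as for GNPDA1. SCN2B and ZNF763 lay below the signal threshold of 24.8 on both control arrays and were tested only because both knockdown arrays lay above it. Of the members, GNPDA2 and GFPT1 were closest, at distances of 0.52 and 0.53, with 405 and 413 genes closer than they were. GNPNAT1 was the farthest, at 2.15.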

How the data were processed

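Total RNA of 4 samples was measured on 1-colour Affymetrix U133 Plus 2.0 arrays. The authors deposited MAS5 signal intensity per probe set. The submitters' processing notes name Affymetrix Expression Console and MAS5 as tools. Their versions and the scaling target: not given in the sources used here. MAS5 subtracts mismatch signals, so dim probe sets are noisy. Groups came from the sample titles.

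Signals were taken to log2 with no pseudocount or further normalization. Of 54675 probe sets, 41091 had 1 gene symbol, 1801 several and 11721 none; 62 controls were left out. Symbols were checked by Entrez ID against RefSeq (41037 matched, 0 updated). A gene was its kept probe set of highest mean log2 signal. Limma 3.58.1 in R 4.3.3 (lmFit, then eBayes with trend) gave two-sided tests of shSOX11 minus shControl, adjusted over 11938 genes by Benjamini-Hochberg. The script was tested on simulated data. Named were all members, SOX11, the marker genes, OGA, the 3 wider-list genes per direction with the largest non-overlapping difference, and the 5 genes nearest GNPDA1. GNE, NANP, NANS, NPL, GLUL, SLC1A5 and UAP1L1 were named beside these after their values were seen. Members and lists were chosen with earlier results of these data known. RefSeq's promoter table held all 9 genes.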

Additional observations from a re-analysis of the deposited data

How the results depend on the processing

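Settings tried were median centring, quantile normalization, no filter or one at the 35th or 65th percentile, a pseudocount of 32, limma without trend or robust, an adjusted p of 0.10, the mean of probe sets, no probe sets ending in _x_at, and leaving out each array. The GNPDA1 log2 difference was 0.95 to 1.17 over 8 of these and 0.89 to 1.28 with an array left out. With all 4 arrays, 0 members, 0 member probe sets and 0 wider-list genes passed the adjusted threshold in any setting run. With an array left out these were 0 to 2, 0 to 2 and 0 to 3 (CMAS, GLUL and PIGA), the highest without shSOX11.1, when 953 of all 11938 genes passed against 0 with all arrays. Without shSOX11.3, 211 genes passed, GNPDA1, picked for this difference, being the 1 member. Those fits take the error from the other group alone and cannot test a gene. Members lower on every pair were 0 with median centring (17.6% of all genes) and 1 to 3 with an array left out (36.6% to 48.6%). Members higher on every pair were 4 (26.7% to 36.1% of all genes with an array left out), or 5 with the mean of probe sets (18.3%), which added OGT. The OGT difference turned to 0.017 with quantile normalization, 0.054 with median centring, and 0.16 with the mean of probe sets, and with an array left out it ran from -0.068 to 0.010 (positive without shControl.1). That of NAGK ran from -0.21 to 0.0029 (positive without shSOX11.3). The number of arrays and, for dim probe sets, signal near background limit the precision. No paired analysis was possible because the groups share 1 construct number only, and constructs differ between groups.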
